A study of Mus musculus with 20 samples.

Results

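The genes described here are 37 genes of glycolysis and of the response to low oxygen, taken by symbol from the deposited annotation of 43432 genes. Of these, 22 encode proteins of glycolysis, from glucose uptake to lactate export, and 15 encode regulators and targets of the hypoxia response. All 37 passed the filter on low counts, both over all 20 libraries, where 15779 genes were tested, and over the 15 libraries of the transformed lines, where 13832 genes were tested.

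RNA sequencing was done on mouse cells of 7 groups, all labelled as nude mouse, an athymic strain. SU3 is a line of human glioma stem cells, and 5 groups are lines that the study calls malignantly transformed host cells. C12 (3 libraries) is labelled as macrophages that transformed in culture beside SU3 and peritoneal washing cells. ih_CTC (3) is labelled as transformed macrophages of a peritoneal xenograft, and ih_DCTC (3) as transformed dendritic cells from a culture of SU3 with bone marrow dendritic cells. ih_BCTC (3) is labelled as transformed oligodendrocytes recultured from an SU3 brain tumour. ih_STC_BM (3) is labelled as transformed mesenchymal stem cells cultured from an SU3 tumour in a mouse with damaged and reconstructed bone marrow. The groups that the study calls precursors are MDSC (3), immunosuppressive cells of the myeloid lineage, and MSC (2), mesenchymal stem cells of normal bone marrow. For culture the labels name DMEM plus 10% FBS, for every group except ih_BCTC, which is not listed there, and they speak of monoclonal culture, so a line may be 1 clone. They give no age, animal, batch or oxygen level, and nothing says that the libraries of a group came from separate cultures, so p-values measure the spread between these libraries, which may be technical.

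Glycolysis splits glucose into pyruvate, and lactate dehydrogenase turns pyruvate into lactate, which is exported from the cell. Many tumour cells run this route fast even where oxygen is plentiful. When oxygen is low, prolyl hydroxylases of the EGLN family stop marking HIF-alpha proteins for destruction, and HIF then raises the transcription of glucose transporters, glycolytic enzymes and genes such as Vegfa, Bnip3 and Adm. HIF-alpha is controlled mostly as protein, which RNA sequencing does not measure.

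The libraries held between 8794777 and 12400640 expected counts each. Levels are given as CPM (reads of a gene relative to all reads) on TMM-scaled library sizes unless TPM, which also corrects for gene length, is named. The share of reads in introns ranged from 1.02% to 8.52% in the line libraries, from 9.64% to 10.36% in MDSC and from 2.07% to 3.09% in MSC. The MDSC libraries differed from one another by little more than counting noise (chi-square per degree of freedom 1.73 to 3.32 between pairs), against 25.6 to 282.3 between libraries of any other group. The summed level of 8 leukocyte markers was at most 22.9 CPM in any line library, against 5851 to 5921 CPM in MDSC and 2265 to 3217 CPM in MSC. The 8 macrophage and monocyte markers summed to 49.06 to 92.1 CPM in C12, 100.6 to 112.1 CPM in ih_CTC and 53.4 to 193.5 CPM in ih_DCTC, against 2111 to 2125 CPM in MDSC and 4139 to 4612 CPM in MSC. Of these 8, 3 or 4 were at 1 CPM or more in these lines and all 8 in MDSC and MSC. The 8 dendritic cell markers summed to 5.31 to 13.8 CPM in ih_DCTC, with 3 at 1 CPM or more, against 7107 to 7430 CPM in MDSC and 301 to 471 CPM in MSC. The myeloid labels of these lines were thus not borne out by these lists. All lines held mesenchymal and fibroblast markers, at summed levels of 2614 to 11570 CPM, against 22.7 to 24.4 CPM in MDSC and 4803 to 5597 CPM in MSC. The 8 oligodendrocyte markers summed to 8.92 to 11.4 CPM in ih_BCTC, with 3 at 1 CPM or more and Olig2, Sox10 and Mog at 0 counts. MDSC also held erythroid markers, at 15980 to 16750 CPM, and granulocyte markers, at 38340 to 40870 CPM. In bulk RNA, fewer cells of a type and less RNA per cell cannot be told apart, and the part that other cell types have in the differences below was not tested.

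HIF binds short sites with the core ACGTG or GCGTG. RefSeq promoters (GRCm38.p6, 250 bases before to 50 after a transcript's start, which need not be the gene's start) were found for 33 of the 37 genes, 47 promoters in all. ACGTG, on either strand, was present in 26 of these 47 promoters and in 19.6% of all 32851 promoters, GCGTG in 27 of the 47 and in 32.4% of all, and at least 1 of them in 38 of the 47 and in 43.8% of all. A match is a description of the letters and not a measured binding site. A promoter of each of 4 genes is shown because these genes carry the results below. They are Ldha, the lactate dehydrogenase subunit gene with the steepest called slope on the intron share, and Hif1a, the HIF-alpha gene that moved the other way. The others are the glucose transporter gene Slc2a1 and the ankyrin repeat gene Ankrd37, whose highest levels were in the same library. For Ldha more than 1 promoter was found, and only the window below is shown. Capitals mark ACGTG and GCGTG on either strand, so that the reverse complements CACGT and CACGC are also in capitals, and CACGTG counts as a match on each strand. The Ldha window (chr7:46845554-46845853, plus strand, in GRCm38.p6 like the others) held 5 matches of ACGTG and 2 of GCGTG, the Hif1a window (chr12:73907617-73907916, plus strand) 3 and 0, the Slc2a1 window (chr4:119108495-119108794, plus strand) 1 and 1, and the Ankrd37 window (chr8:45999801-46000100, minus strand) 2 and 2.
Ldha: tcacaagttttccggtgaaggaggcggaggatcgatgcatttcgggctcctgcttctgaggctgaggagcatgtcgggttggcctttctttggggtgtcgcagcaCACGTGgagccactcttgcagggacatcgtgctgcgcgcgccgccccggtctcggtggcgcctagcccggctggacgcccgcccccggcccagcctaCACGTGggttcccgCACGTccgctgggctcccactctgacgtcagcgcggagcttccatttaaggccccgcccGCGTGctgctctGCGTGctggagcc
Hif1a: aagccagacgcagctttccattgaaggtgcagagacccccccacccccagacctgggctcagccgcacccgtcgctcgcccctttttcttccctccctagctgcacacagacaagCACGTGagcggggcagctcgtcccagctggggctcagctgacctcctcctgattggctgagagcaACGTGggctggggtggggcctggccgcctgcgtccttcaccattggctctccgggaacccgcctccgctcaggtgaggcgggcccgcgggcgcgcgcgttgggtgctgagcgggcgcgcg
Slc2a1: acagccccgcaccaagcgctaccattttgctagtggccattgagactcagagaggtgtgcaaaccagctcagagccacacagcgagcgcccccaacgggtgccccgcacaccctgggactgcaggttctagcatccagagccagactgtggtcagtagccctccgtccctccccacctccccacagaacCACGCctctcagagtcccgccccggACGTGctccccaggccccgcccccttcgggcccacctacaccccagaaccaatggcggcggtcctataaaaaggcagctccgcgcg
Ankrd37: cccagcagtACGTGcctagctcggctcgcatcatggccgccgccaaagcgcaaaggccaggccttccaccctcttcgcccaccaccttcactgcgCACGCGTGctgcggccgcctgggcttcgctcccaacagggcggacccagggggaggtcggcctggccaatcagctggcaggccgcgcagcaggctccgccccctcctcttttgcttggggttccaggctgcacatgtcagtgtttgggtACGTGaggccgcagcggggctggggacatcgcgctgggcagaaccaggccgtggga

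Per length, the enzymes of the lower pathway were abundant RNAs in the lines, with Aldoa, Tpi1, Gapdh, Pgk1, Pgam1, Eno1, Pkm and Ldha between the 24th and the 230th place by mean TPM, while Hk1, Hk2, Pfkm, Pfkp and Aldoc lay below the 1000th. Summed over the 16 enzyme genes from Hk1 to Ldha, the level was 12631, 17093 and 8097 TPM in C12, 17272, 18970 and 13873 TPM in ih_CTC, and 22247, 19830 and 16858 TPM in ih_DCTC. It was 16324, 15652 and 18107 TPM in ih_BCTC and 15805, 4003 and 11846 TPM in ih_STC_BM, against 3109, 3094 and 3100 TPM in MDSC and 7900 and 8393 TPM in MSC. Every line library lay above the 3 MDSC libraries, while C12 3 lay between the 2 MSC libraries and ih_STC_BM 2 lay below both. Pgk1, the first enzyme of the pathway to make ATP, averaged 3967 ± 711 TPM in ih_DCTC and 3768 ± 569 TPM in ih_CTC (SD, n = 3 each), where it was the 35th and the 24th most abundant gene by mean TPM, against 421 ± 14.2 TPM in MDSC (n = 3).

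**Figure D1:**
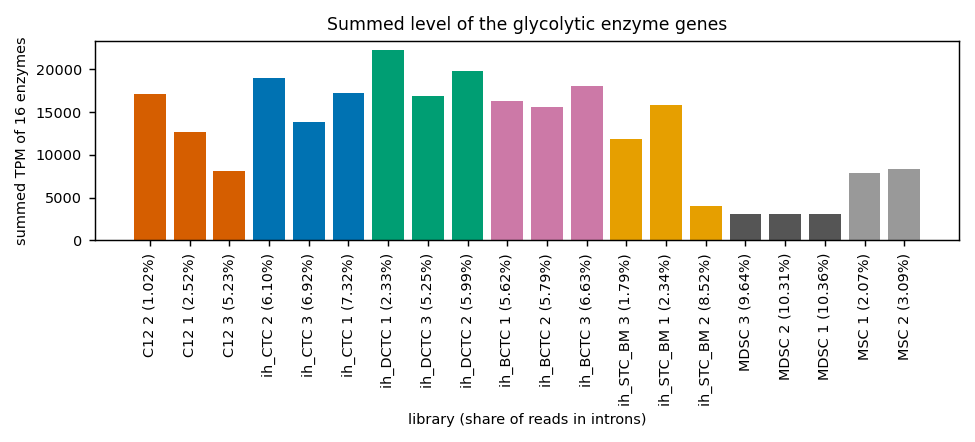
Summed TPM of the 16 glycolytic enzyme genes (vertical axis, from 0) in each of the 20 libraries (horizontal axis, with the share of reads in introns in brackets, ordered by that share within each group, 1 colour per group). The 3 MDSC bars sit between 3094 and 3109 TPM, and the ih_STC_BM library with the highest intron share, at 4003 TPM, is the lowest line library.

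The groups differed in which gene of a family they used. Slc2a1, the widespread glucose transporter GLUT1, made up 98.6% to 99.7% of the summed TPM of Slc2a1 and Slc2a3 in the means of the 5 lines, against 48.0% ± 0.42 in MDSC (SD, n = 3) and 96.7% ± 1.55 in MSC (n = 2). Hk3, a hexokinase of blood cells that is not among the 37 genes, held 65.4% ± 0.0887 of hexokinase TPM in MDSC and 77.5% ± 8.86 in MSC, against means of at most 0.582% in any line. Hk1 led over Hk2 in C12 (64.7% ± 13.4 against 34.7% ± 13.4) and in ih_STC_BM (67.2% ± 6.76 against 32.4% ± 7.22), and Hk2 led in ih_CTC, ih_DCTC and ih_BCTC, with 55.9% to 58.1% of the TPM in their means. Pfkl, the liver-type phosphofructokinase, held 54.98% to 75.3% of the phosphofructokinase TPM in the means of the lines, 43.8% ± 2.56 in MDSC and 68.2% ± 7.92 in MSC. Eno2, the enolase named for neurons, held 17.5% ± 7.44 of the summed TPM of Eno1 and Eno2 in ih_DCTC and 4.71% ± 2.29 in C12, against 0.679% ± 0.279 in MDSC and 3.85% ± 1.34 in MSC. Hif1a held at least 96.4% of the summed TPM of Hif1a and Epas1 in the means of the lines and 97.9% ± 0.359 in MDSC, whereas in MSC Epas1, the gene of HIF-2-alpha, held 42.2% ± 3.36. Reads of Gapdh and Eno1 are shared with near-identical copies: 266 annotated copies held 29.6% to 54.7% of the counts of Gapdh and its copies, and 2 copies 28.1% to 46.3% of those of Eno1, so their levels are uncertain.

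**Figure D2:**
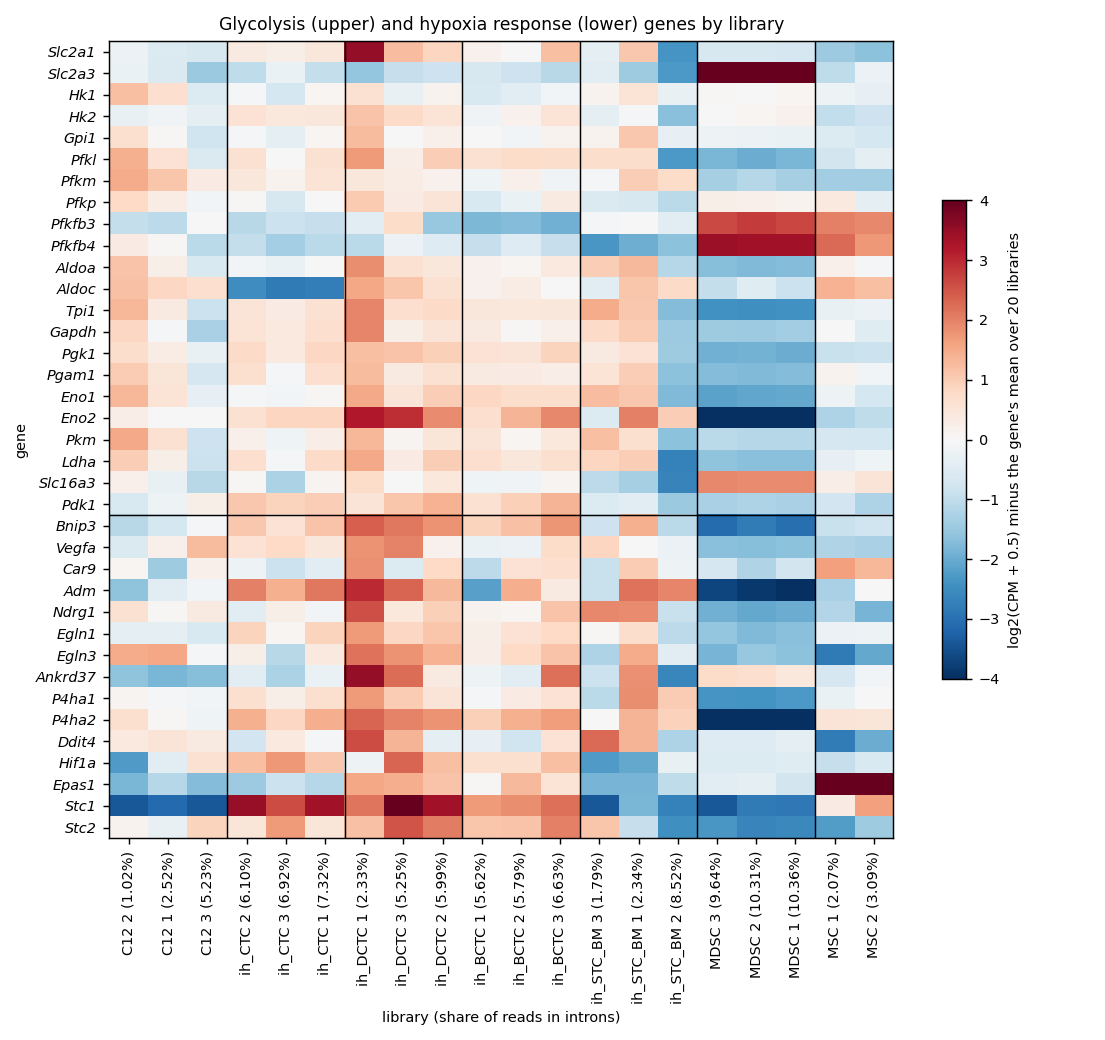
Level of each of the 37 genes (rows; glycolysis above, hypoxia response below) in each of the 20 libraries (columns, grouped by label and ordered by intron share, given in brackets), as log2(CPM + 0.5) minus the gene's mean over the libraries. Red is above and blue below that mean, with colours capped at 4; MDSC columns are blue for most glycolytic enzymes and red for Slc2a3, Pfkfb3, Pfkfb4 and Slc16a3.

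Most of the 37 genes had their highest group mean in ih_DCTC (28 genes) and most of the lowest means were in MDSC (20 genes). The shares of all genes with such means are not given. Between ih_DCTC and ih_BCTC, none of the 37 genes passed edgeR's quasi-likelihood test (lowest adjusted p = 0.29, for Pfkfb3). The share of all tested genes that passed for this pair is not given, and the adjustment runs over all of them. By median, Aldoa, Tpi1, Gapdh, Eno1, Pkm and Ndrg1 were higher in ih_STC_BM than in ih_DCTC, and the others of the 28 were not. The comparison of the myeloid-labelled lines with MDSC asks how these genes differ between the transformed lines and the group called their precursor, and the 3 comparisons share the MDSC libraries. Genes were called at an adjusted p under 0.05, from edgeR's quasi-likelihood test with Benjamini-Hochberg adjustment over all tested genes. In C12, 22 of the 37 genes were higher than in MDSC and 6 lower, while 31.3% of all tested genes were higher and 30.5% lower. In ih_CTC, 22 were higher and 5 lower, against 28.2% and 27.1% of all tested genes. In ih_DCTC, 29 were higher and 4 lower, against 31.2% and 28.1% of all tested genes. The median log2 fold change over MDSC of the 37 genes was 1.82 in C12, 1.90 in ih_CTC and 2.54 in ih_DCTC, beside all-gene medians of 0.03, 0.08 and 0.09. Adjusted for intron share, the counts were 8 higher and 10 lower in C12 and 19 higher in ih_DCTC, and with the MDSC libraries summed to 1 the higher counts were 12 in C12 and 13 in ih_CTC. The shares of all tested genes above are of the unadjusted fit to all libraries, and those of these alternatives are not given. MDSC had higher intron shares than the line libraries, and the part of that share in these counts cannot be told apart from the groups.

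At the entry of the pathway, Slc2a3 fell in all 3 lines and Slc2a1 rose in ih_DCTC. Slc2a3 (GLUT3, a transporter of neurons and blood cells; chr6:122727809-122801640, minus strand, in the deposited annotation, whose build is not stated and which gives all gene positions below) had 6.71, 8.55 and 3.37 CPM in C12, 5.10, 4.90 and 8.56 CPM in ih_CTC and 3.24, 5.57 and 5.26 CPM in ih_DCTC, against 416.8, 420.8 and 411.1 CPM in MDSC. MDSC was far above each line, with no overlap, and Slc2a3 fell by 6.07 ± 0.51 (SE) on the log2 scale in C12 (adjusted p = 2.3e-08), by 6.07 ± 0.51 in ih_CTC (adjusted p = 2.1e-08) and by 6.46 ± 0.52 in ih_DCTC (adjusted p = 1.3e-08). Slc2a1 (chr4:119108711-119137330, plus strand) had 3289, 527 and 691 CPM in ih_DCTC, against 183, 187 and 187 CPM in MDSC. All 3 ih_DCTC libraries were above MDSC, the first of them by far, with a log2 fold change of 3.02 ± 0.71 (adjusted p = 0.0016). Once intron share entered as a covariate, the value was 0.47, adjusted p = 0.6. Slc2a1 was not called in C12 (198, 249 and 184 CPM) or ih_CTC (398, 376 and 341 CPM), and in C12 it stood at 0.18 on the log2 scale. Once intron share entered as a covariate, Slc2a1 stood at -2.52 in C12 and was called lower (adjusted p = 0.013).

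The enzymes from phosphofructokinase to lactate dehydrogenase were mostly higher in the lines. Aldoa, Tpi1, Gapdh, Pgk1, Pgam1, Eno1, Eno2, Ldha, Pfkl and Pfkm were called higher than in MDSC in all 3 lines, and Pkm, pyruvate kinase, in C12 and ih_DCTC. Hk1, Gpi1 and Pfkp were called in none of them, and Hk2 only in ih_DCTC, where RLE scaling gave an adjusted p of 0.11. Tpi1, triose phosphate isomerase (chr6:124810586-124814296, minus strand), had 1064, 2064 and 456 CPM in C12, 1274, 1183 and 1033 CPM in ih_CTC and 3187, 1415 and 1304 CPM in ih_DCTC, against 153, 152 and 155 CPM in MDSC. No line library reached down to MDSC, and the log2 fold changes were 2.96 ± 0.62, 2.92 ± 0.62 and 3.68 ± 0.64 for C12, ih_CTC and ih_DCTC (adjusted p = 5.7e-04, 6.9e-04 and 1.1e-04). Ldha had 1786, 3024 and 854 CPM in C12, 2583, 2428 and 1482 CPM in ih_CTC and 4367, 3030 and 1945 CPM in ih_DCTC, against 478, 480 and 501 CPM in MDSC. Its log2 fold changes were 1.96 ± 0.63 (adjusted p = 0.012), 2.15 ± 0.63 (0.0076) and 2.68 ± 0.64 (0.0018), and without C12 2 the C12 value was 1.47, adjusted p = 0.062. Adjusted for intron share, Ldha stood at -1.39 in C12 (adjusted p = 0.051), 0.70 in ih_CTC and 0.22 in ih_DCTC. Gapdh in C12 then stood at -1.55 and was called lower (adjusted p = 0.004), against 1.495 unadjusted.

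Eno2 stood apart from the other enzymes in size (chr6:124760053-124769673, minus strand). It had 56.4, 68.4 and 57.2 CPM in C12, 104, 86.9 and 104 CPM in ih_CTC and 538, 213 and 444 CPM in ih_DCTC, against 1.22, 1.08 and 2.13 CPM in MDSC, which rest on few counts. The groups did not overlap, and the log2 fold changes were 5.34 ± 0.60 in C12 (adjusted p = 8e-07), 6.04 ± 0.61 in ih_CTC (2.4e-07) and 8.06 ± 0.66 in ih_DCTC (1.7e-08). The bifunctional enzymes that set fructose-2,6-bisphosphate, the activator of phosphofructokinase, went the other way. Pfkfb3 had 7.03, 7.57 and 14.97 CPM in C12, 7.69, 6.77 and 8.13 CPM in ih_CTC and 10.8, 4.89 and 25.3 CPM in ih_DCTC, against 98.8, 107.7 and 96.1 CPM in MDSC, and fell by 3.35 ± 0.44, 3.74 ± 0.45 and 2.88 ± 0.43 on the log2 scale. Pfkfb4 had means of 7.98 ± 3.73, 3.72 ± 0.591 and 5.66 ± 1.71 CPM in C12, ih_CTC and ih_DCTC, against 94.9 ± 2.24 CPM in MDSC (SD, n = 3 each), and fell by 3.58 ± 0.37, 4.67 ± 0.39 and 4.06 ± 0.38. Slc16a3, the lactate exporter MCT4, was also lower in the 3 lines, at 66.2 ± 28.7 CPM in C12, 68.3 ± 30.0 CPM in ih_CTC and 109.2 ± 26.9 CPM in ih_DCTC, against 306.4 ± 3.78 CPM in MDSC. Pdk1, a kinase that inhibits pyruvate dehydrogenase, was higher in all 3, with log2 fold changes of 1.15 ± 0.31, 2.28 ± 0.32 and 2.35 ± 0.32.

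Among the hypoxia response genes, the collagen prolyl hydroxylase subunit gene P4ha2 had the largest rise (chr11:54100095-54131665, plus strand). It had 54.96, 81.9 and 46.5 CPM in C12, 146, 143 and 94.2 CPM in ih_CTC and 265, 185 and 211 CPM in ih_DCTC, against 0.663, 0.361 and 0.213 CPM in MDSC. MDSC lay near 0, and the log2 fold changes were 7.17 ± 0.48, 8.24 ± 0.50 and 9.02 ± 0.51 (adjusted p = 1.9e-09, 5.1e-10 and 2.4e-10). Adm, which encodes the vessel-widening peptide adrenomedullin, had 39.7, 17.4 and 49.5 CPM in C12, 236, 217 and 144 CPM in ih_CTC and 427, 133 and 270 CPM in ih_DCTC, against 2.87, 3.25 and 3.73 CPM in MDSC, with log2 fold changes of 3.43 ± 0.84, 5.92 ± 0.92 and 6.39 ± 0.94. Bnip3, a mitophagy receptor gene, averaged 74.2 ± 27.8, 213.5 ± 41.3 and 480.3 ± 99.9 CPM in C12, ih_CTC and ih_DCTC, against 13.7 ± 1.54 CPM in MDSC. Vegfa, the gene of the main growth factor of blood vessels, averaged 235.6 ± 150.5, 257 ± 32.1 and 481 ± 255 CPM in these lines, against 52.0 ± 0.900 CPM in MDSC (SD, n = 3 each), with log2 fold changes of 2.18 ± 0.48, 2.31 ± 0.49 and 3.21 ± 0.50. Ndrg1, Egln1, Egln3, P4ha1 and Stc2 were also higher in all 3. Car9, a carbonic anhydrase that acidifies the cell's surroundings, and Ddit4, an inhibitor of mTOR signalling, were called higher in ih_DCTC and not called in C12 or ih_CTC. Car9 was low in both groups, at 11.5, 5.34 and 1.81 CPM in ih_DCTC, against 1.55, 0.962 and 1.60 CPM in MDSC. Ddit4 had 823, 101.5 and 344 CPM in ih_DCTC, against 103.6, 92.3 and 93.9 CPM in MDSC, so ih_DCTC 2 lay within the MDSC range. Ankrd37 was called lower in C12 (0.879, 1.10 and 1.02 CPM, against 6.07, 7.33 and 7.57 CPM in MDSC; log2 fold change -2.79 ± 1.07, adjusted p = 0.032), and leaving out any single C12 library gave adjusted p-values of 0.083, 0.079 and 0.07.

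**Figure D3:**
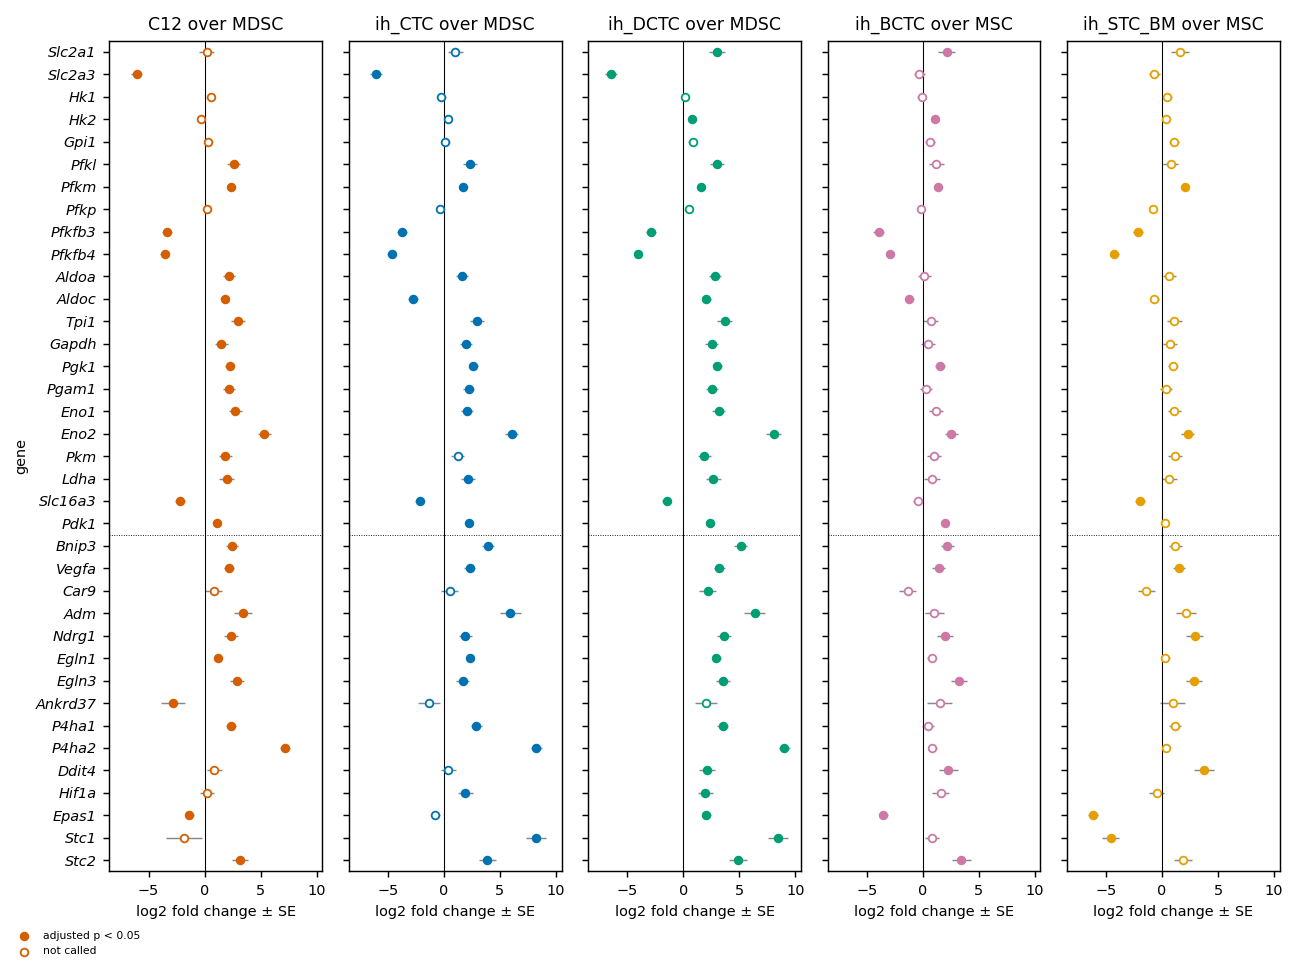
Log2 fold change with its standard error (horizontal axis) of each of the 37 genes (vertical axis; glycolysis above the dotted line, hypoxia response below) in each line over its comparison group, MDSC for C12, ih_CTC and ih_DCTC and MSC for ih_BCTC and ih_STC_BM. Filled points passed an adjusted p of 0.05 and open points did not; Stc1 in C12 rests on 1 count, the ih_STC_BM panel has 11 filled points and the ih_DCTC panel 33.

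Against MSC, between 10 and 21 of the 37 genes differed in each line, and all 5 comparisons share the 2 MSC libraries. In ih_BCTC, 12 were higher and 4 lower, against 15.9% and 20.8% of all tested genes, and in ih_STC_BM 6 were higher and 5 lower, against 14.8% and 17.4%. In C12, 6 were higher and 4 lower, against 14.7% and 18.4% of all tested genes, in ih_CTC 13 and 5, against 14.7% and 19.9%, and in ih_DCTC 18 and 3, against 16% and 18.1%. The median log2 fold change over MSC of the 37 genes was 0.86 in ih_BCTC, 0.68 in ih_STC_BM, 0.46 in C12, 0.78 in ih_CTC and 1.52 in ih_DCTC, beside all-gene medians of 0.04, 0.02, 0, 0.04 and 0.05. Adjusted for intron share, the number higher was 22 in ih_BCTC, 15 in ih_STC_BM, 14 in C12, 22 in ih_CTC and 29 in ih_DCTC. For this fit and those with a library left out, the shares of all tested genes are not given. The number higher also depended on single libraries. Without MSC 1 it was 4 in ih_BCTC, 2 in ih_STC_BM, 2 in C12 and 2 in ih_CTC, and without MSC 2 it was 5 in ih_BCTC, 2 in C12 and 6 in ih_CTC. Without ih_BCTC 3 it was 7 in ih_BCTC, without ih_CTC 1 it was 8 in ih_CTC, and without ih_STC_BM 2 it was 15 in ih_STC_BM.

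The enzymes of the middle and lower pathway did not pass the test against MSC in most lines. Aldoa, Tpi1, Gapdh, Pgam1, Eno1, Pkm and Ldha were called in none of the 5 lines, with log2 fold changes between -0.20 (Aldoa in ih_CTC) and 1.52 (Tpi1 in ih_DCTC). Ldha had 2465, 2102 and 2370 CPM in ih_BCTC and 3010, 236 and 2808 CPM in ih_STC_BM, against 1232 and 1367 CPM in MSC. The ih_BCTC libraries were all above MSC (0.83 ± 0.69, adjusted p = 0.38), while ih_STC_BM 2 lay below MSC and the other ih_STC_BM libraries above it (0.64 ± 0.69, adjusted p = 0.52). Pgk1 was called higher in 4 lines, with log2 fold changes of 1.17 ± 0.43 in C12, 1.55 ± 0.44 in ih_CTC, 1.97 ± 0.45 in ih_DCTC and 1.55 ± 0.44 in ih_BCTC, and in ih_STC_BM it had 2388, 599 and 2062 CPM, against 849 and 886 CPM in MSC, and was not called. Pfkm, the muscle-type phosphofructokinase, was higher in all 5, at 51.8, 67.0 and 52.7 CPM in ih_BCTC and 115.8, 97.9 and 55.7 CPM in ih_STC_BM, against 22.1 and 21.8 CPM in MSC. Its log2 fold changes were 1.38 ± 0.34 in ih_BCTC (adjusted p = 0.0038) and 2.03 ± 0.35 in ih_STC_BM (2.4e-04). Eno2 had 90.9, 149 and 218 CPM in ih_BCTC and 234, 114 and 39.2 CPM in ih_STC_BM, against 24.0 and 28.4 CPM in MSC, with log2 fold changes of 2.54 ± 0.59 (adjusted p = 0.0025) and 2.30 ± 0.58 (0.0056). The value in ih_STC_BM was 2.18, adjusted p = 0.067, without MSC 1.

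Pfkfb3 and Pfkfb4 were lower in all 5 lines than in MSC too. Pfkfb3 had 3.98, 4.22 and 3.62 CPM in ih_BCTC and 14.8, 10.9 and 14.5 CPM in ih_STC_BM, against 62.7 and 58.4 CPM in MSC, and fell by 3.94 ± 0.48 (adjusted p = 5.3e-06) and 2.18 ± 0.45 (0.0013) on the log2 scale. Pfkfb4 had 4.36, 5.94 and 4.34 CPM in ih_BCTC and 1.85, 2.43 and 1.32 CPM in ih_STC_BM, against 43.6 and 30.0 CPM in MSC, and fell by 2.91 ± 0.38 (1.1e-05) and 4.28 ± 0.41 (4.6e-07). MSC held macrophage markers, as given above, and the part of those cells in these falls was not tested. Slc16a3 was called lower in ih_STC_BM (31.9, 12.37 and 39.0 CPM, against 98.1 and 115.8 CPM in MSC; log2 fold change -1.95 ± 0.45, adjusted p = 0.003), and its means of 66.2 CPM in C12, 68.3 CPM in ih_CTC and 77.9 CPM in ih_BCTC, against 107 CPM in MSC, did not pass the test. Slc2a3 was low in the lines and in MSC alike, at 1.72 to 8.55 CPM in C12, ih_DCTC, ih_BCTC and ih_STC_BM and up to 8.56 CPM in ih_CTC, against 4.90 and 8.78 CPM in MSC. Slc2a1 was higher in ih_DCTC (3.92 ± 0.88, adjusted p = 0.0022) and ih_BCTC (2.12 ± 0.80, adjusted p = 0.047) than in MSC, and the value in ih_BCTC had an adjusted p of 0.057 without ih_BCTC 1, 0.14 without ih_BCTC 3, 0.18 without MSC 1 and 0.2 without MSC 2.

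Of the hypoxia response genes, Egln3 and Ddit4 were called higher in all 5 lines than in MSC. Egln3, a HIF prolyl hydroxylase gene, had 43.3, 63.4 and 79.5 CPM in ih_BCTC and 102, 26.9 and 15.1 CPM in ih_STC_BM, against 4.69 and 8.43 CPM in MSC, with log2 fold changes of 3.24 ± 0.74 (adjusted p = 0.0023) and 2.86 ± 0.73 (0.0058). Ddit4 had 104.9, 75.6 and 198 CPM in ih_BCTC and 340, 56.9 and 636 CPM in ih_STC_BM, against 18.8 and 33.0 CPM in MSC, with log2 fold changes of 2.28 ± 0.83 (0.038) and 3.73 ± 0.89 (0.0039). Both genes were above MSC in every library of these lines, with the lowest values in ih_STC_BM 3 for Egln3 and ih_STC_BM 2 for Ddit4. Without MSC 1, Ddit4 had adjusted p-values of 0.24 in ih_BCTC and 0.063 in ih_STC_BM, and Egln3 one of 0.083 in ih_STC_BM, and Ddit4 in ih_BCTC had one of 0.096 without MSC 2. Vegfa was called higher in all 5, with log2 fold changes of 1.41 ± 0.54 in ih_BCTC (adjusted p = 0.05) and 1.54 ± 0.55 in ih_STC_BM (0.039), but leaving out any 1 library of ih_BCTC or MSC gave adjusted p-values of 0.051 to 0.19 in ih_BCTC, and leaving out ih_STC_BM 3, MSC 1 or MSC 2 gave 0.12, 0.16 and 0.18 in ih_STC_BM. Ndrg1, a stress-response gene, had 272, 264 and 554 CPM in ih_BCTC and 931, 133.6 and 951 CPM in ih_STC_BM, against 110.6 and 68.5 CPM in MSC, with log2 fold changes of 2.02 ± 0.70 and 2.91 ± 0.74. P4ha2 was not called in ih_BCTC or ih_STC_BM, where it had 101.8 to 167.8 CPM and 53.7 to 134.7 CPM, against 75.7 and 74.6 CPM in MSC.

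MDSC and MSC, the groups used for comparison, differed from each other in 19 of the 37 genes. MDSC had 4 higher and 15 lower than MSC, against 20.4% and 25.6% of all tested genes, with a median log2 fold change of -0.90 beside an all-gene median of -0.07. Slc2a3 (5.92 ± 0.61, adjusted p = 6.5e-07), Slc16a3 (1.52 ± 0.47, 0.015), Pfkfb4 (1.37 ± 0.39, 0.0079) and Hk2 (1.01 ± 0.35, 0.027) were higher in MDSC. P4ha2, with 0.213 to 0.663 CPM in MDSC and 74.6 to 75.7 CPM in MSC, fell by 7.47 ± 0.50 on the log2 scale (6.2e-09), Stc1 by 6.08 ± 0.89 (3.3e-05), Epas1 by 4.88 ± 0.44 (1.6e-07) and Eno2 by 4.13 ± 0.60 (3e-05). Gapdh (-1.19 ± 0.61, adjusted p = 0.12) and Ldha (-1.42 ± 0.67, adjusted p = 0.091) did not pass. With intron share as a covariate they stood at 1.77 and 1.88 and were called higher in MDSC (adjusted p = 0.0027 and 0.019). Adjusted for intron share, 14 of the 37 genes were higher and 7 lower, and with only the MDSC and MSC libraries in the fit 11 were higher. For these fits the shares of all tested genes are not given. Without MSC 1 or MSC 2 the number higher was 2 and 1, and with the MDSC libraries summed to 1 the counts were 1 higher and 5 lower. Slc16a3 had adjusted p-values of 0.11 without MSC 1 and 0.063 without MSC 2, and Pfkfb4 0.099 without MSC 2.

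Among the 5 lines themselves, 18 of the 37 genes differed in a test of any difference, against 33.2% of all tested genes. They were 10 glycolysis genes (Slc2a1, Hk2, Pfkm, Pfkp, Pfkfb3, Pfkfb4, Aldoc, Eno2, Slc16a3 and Pdk1) and 8 hypoxia response genes (Bnip3, Adm, Egln1, Ankrd37, P4ha2, Hif1a, Epas1 and Stc1). The core enzymes Aldoa, Tpi1, Gapdh, Pgk1, Pgam1, Eno1, Pkm and Ldha were not among them, with adjusted p-values of 0.2 to 0.9. Their libraries within C12, ih_DCTC and ih_STC_BM spread widely, except for Pgk1 in ih_DCTC (3646, 3095 and 3484 CPM). Leaving out the 5 libraries of lines whose intron share was under 3%, which leaves C12 and ih_STC_BM with 1 library each, 28 genes were called.

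Stc1, a stanniocalcin gene whose product is a secreted glycoprotein, had the smallest p of the 37 (chr14:69029289-69041401, plus strand; adjusted p = 1.4e-06). It had 53.8, 58.6 and 31.4 CPM in ih_CTC, 22.8, 53.9 and 95.9 CPM in ih_DCTC and 16.6, 18.5 and 23.6 CPM in ih_BCTC, while it was at 0.110, 0 and 0 CPM in C12 and at 0.987, 0.304 and 0 CPM in ih_STC_BM. MDSC had 0.221, 0.241 and 0 CPM and MSC 6.04 and 15.8 CPM. Thus 3 lines lay above MSC and 2 lay near 0. For ih_BCTC the margin was small, with 16.6 CPM in its lowest library against 15.8 CPM in MSC, and it was not called. ih_STC_BM fell by 4.60 ± 0.78 on the log2 scale relative to MSC (adjusted p = 2.3e-04). ih_CTC and ih_DCTC were higher than MSC by 2.13 ± 0.68 (0.022) and 2.39 ± 0.69 (0.012). Its paralog Stc2 was present in C12, at 9.45, 12.9 and 22.0 CPM, against 1.55, 1.44 and 1.92 CPM in MDSC, and did not pass the test among the lines (adjusted p = 0.077).

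Epas1 (chr17:86753907-86833410, plus strand) was the other HIF-alpha gene to differ among the lines (adjusted p = 5.6e-06). It had 12.7, 9.48 and 11.8 CPM in ih_DCTC and 4.13, 10.6 and 6.06 CPM in ih_BCTC, and between 0.733 and 1.97 CPM in every library of C12, ih_CTC and ih_STC_BM. MDSC had 2.21, 3.01 and 2.88 CPM and MSC 78.9 and 80.3 CPM. All 5 lines were below MSC, with log2 fold changes of -6.23 ± 0.47 in C12, -5.67 ± 0.46 in ih_CTC, -2.81 ± 0.40 in ih_DCTC, -3.52 ± 0.41 in ih_BCTC and -6.17 ± 0.47 in ih_STC_BM. Relative to MDSC, Epas1 was higher in ih_DCTC (2.06 ± 0.39, adjusted p = 2.1e-04) and lower in C12 (-1.35 ± 0.42, adjusted p = 0.0099; 0.052 without C12 2).

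Aldoc, the aldolase of brain, was low in 1 line only (chr11:78322968-78327781, plus strand; adjusted p = 1.3e-05). It had 0.385, 0.571 and 0.343 CPM in ih_CTC, and 10.0, 13.1 and 8.94 CPM in C12, 16.8, 8.58 and 12.3 CPM in ih_DCTC, 6.16, 6.88 and 5.43 CPM in ih_BCTC and 12.3, 9.73 and 3.81 CPM in ih_STC_BM. The ih_CTC values rest on few counts per library and did not overlap with those of any other line, and the log2 fold change of ih_CTC over ih_DCTC was -4.81 (adjusted p = 8.3e-06). MDSC had 2.76, 3.73 and 2.56 CPM and MSC 15.2 and 13.3 CPM.

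Hif1a itself, the HIF-alpha gene present in all groups, had 414, 452 and 645 CPM in ih_CTC and 170, 453 and 970 CPM in ih_DCTC, against 138, 134 and 133 CPM in MDSC. Both lines lay above MDSC, with log2 fold changes of 1.90 ± 0.65 (adjusted p = 0.02) and 1.98 ± 0.65 (adjusted p = 0.015). Leaving out ih_CTC 3 or any MDSC library gave adjusted p-values of 0.053 to 0.06 for ih_CTC, and leaving out ih_DCTC 3 gave 0.12 for ih_DCTC. In C12 it had 142, 39.9 and 296 CPM, on both sides of MDSC, and was not called (0.24 ± 0.63, adjusted p = 0.76). ih_BCTC had 306, 302 and 447 CPM and ih_STC_BM 46.6, 158 and 40.2 CPM, against 103 and 128 CPM in MSC, and neither was called (1.60 ± 0.75, adjusted p = 0.1, and -0.50 ± 0.70, adjusted p = 0.63). Among the lines, Hif1a was lower in ih_STC_BM than in ih_CTC, ih_DCTC and ih_BCTC, by log2 differences of 2.62, 2.70 and 2.10 (adjusted p = 0.014, 0.015 and 0.032) written as the other line over ih_STC_BM.

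**Figure D4:**
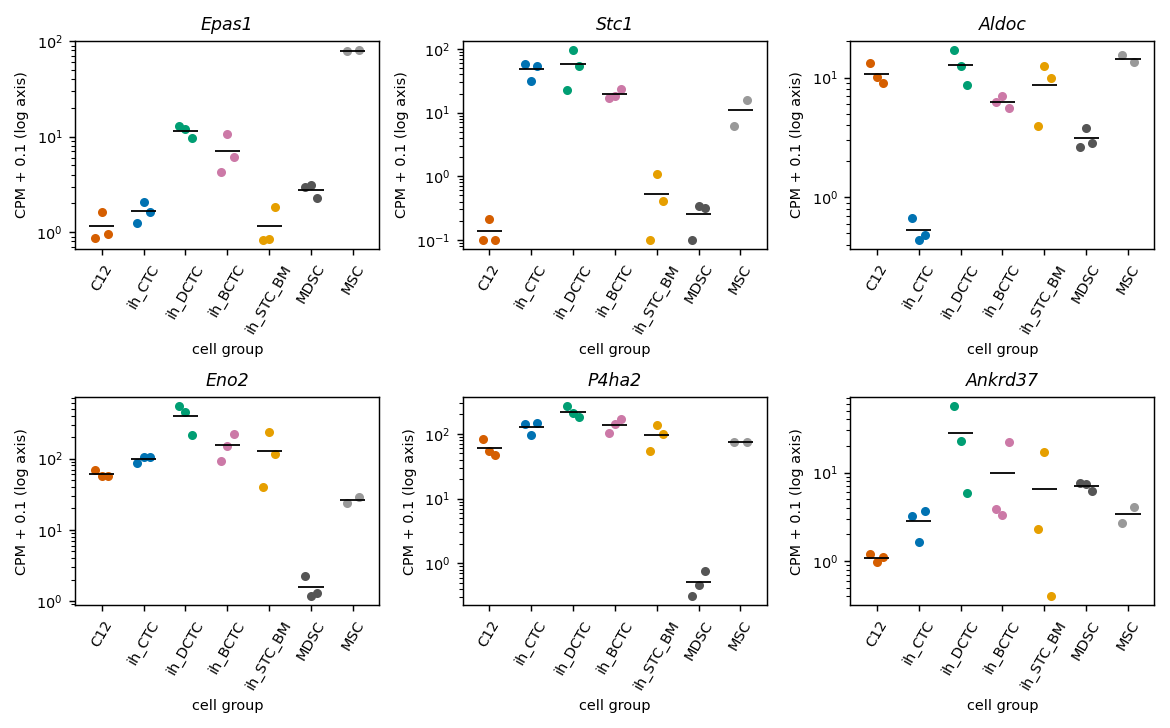
CPM + 0.1 on a log axis (vertical) of Epas1, Stc1, Aldoc, Eno2, P4ha2 and Ankrd37 in the 7 groups (horizontal), 1 point per library with a bar at the group mean. Stc1 sits at or near 0 CPM in C12, ih_STC_BM and MDSC and between 16.6 and 95.9 CPM in ih_CTC, ih_DCTC and ih_BCTC, and Epas1 is highest in MSC.

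Bnip3, P4ha2, Egln1, Adm and Pdk1 were lower in C12 than in both ih_CTC and ih_DCTC. Pdk1 had 67.9, 51.9 and 93.6 CPM in C12 and 58.6, 27.9 and 54.0 CPM in ih_STC_BM, and between 111.9 and 206.5 CPM in every library of ih_CTC, ih_DCTC and ih_BCTC, with no overlap. C12 was lower in Pdk1 than ih_CTC, ih_DCTC and ih_BCTC with log2 fold changes of -1.13, -1.197 and -1.16 (adjusted p = 0.02, 0.016 and 0.014). Bnip3 had 67.7, 50.1 and 105 CPM in C12, against 581, 381 and 480 CPM in ih_DCTC, with a log2 fold change of -2.70 for C12 over ih_DCTC (adjusted p = 0.0021). Ankrd37 had 55.8, 5.79 and 22.4 CPM in ih_DCTC, 3.76, 3.18 and 22.1 CPM in ih_BCTC and 16.8, 0.304 and 2.20 CPM in ih_STC_BM, so that in each of these lines 1 library was well above the others. The library with the highest Ankrd37, ih_DCTC 1, also had the highest Slc2a1, Adm, Ndrg1 and Ddit4 of all 20, at 3289, 427, 1475 and 823 CPM, and its intron share of 2.33% was the lowest of its line.

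Within lines, 14 of the 22 glycolysis genes had lower levels as the share of intronic reads went up, although not in every line. Taking all 15 libraries of the lines, each line with its own mean, 17 of the 37 genes had a negative slope on that share and 1 had a positive slope, against 19.7% and 23.9% of all tested genes. The median slope of the 37 genes was -0.16 log2 units per percentage point, beside an all-gene median of 0.005. None of the other glycolysis genes had a called positive slope, and of the 15 hypoxia response genes 3 had a negative slope (Ndrg1, Egln1 and Ddit4) and 1 a positive one (Hif1a). Without ih_STC_BM 2, the line library with the highest share, 10 negative slopes were called, and the share of all tested genes in that fit is not given. With ih_STC_BM 1, ih_STC_BM 2 or the whole line ih_STC_BM left out, 2 positive slopes were called.

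Ldha and Tpi1 showed this most clearly. Taking the libraries of a line from low to high intron share, Ldha had 3024, 1786 and 854 CPM in C12 (shares of 1.02%, 2.52% and 5.23%) and 2808, 3010 and 236 CPM in ih_STC_BM (1.79%, 2.34% and 8.52%). In ih_DCTC (2.33%, 5.25% and 5.99%) it had 4367, 1945 and 3030 CPM. Its slope was -0.45 ± 0.07 log2 units per percentage point (adjusted p = 3.3e-04), and 0.759% of tested genes had a lower slope. Tpi1 had 2064, 1064 and 456 CPM in C12, 2324, 1739 and 251 CPM in ih_STC_BM and 3187, 1304 and 1415 CPM in ih_DCTC, with a slope of -0.44 ± 0.05 (4e-05). In ih_CTC (6.1%, 6.92% and 7.32%) and ih_BCTC (5.62%, 5.79% and 6.63%), where the shares span little, Tpi1 had 1183, 1033 and 1274 CPM and 1135, 1103 and 1124 CPM and showed no order. The ratio of the library with the lowest share to that with the highest was 11.9 for Ldha and 9.28 for Tpi1 in ih_STC_BM, and 3.54 and 4.52 in C12.

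The negative slopes ran along the pathway from Slc2a1 (-0.39 ± 0.11, adjusted p = 0.0079) through Pfkl (-0.42 ± 0.06, 1.2e-04), Aldoa (-0.36 ± 0.05, 1.1e-04), Gapdh (-0.39 ± 0.05, 7.9e-05), Pgam1 (-0.34 ± 0.06, 2.7e-04), Eno1 (-0.38 ± 0.06, 1.6e-04) and Pkm (-0.40 ± 0.06, 1.4e-04) to Slc16a3 (-0.22 ± 0.06, 0.007). Hk1, Hk2, Gpi1 and Pgk1 had called slopes of -0.16, -0.16, -0.21 and -0.23. Slc2a1 had adjusted p-values of 0.12 without ih_STC_BM 2, 0.064 without the line ih_STC_BM and 0.057 without the line ih_DCTC, and Hk2 had 0.4 without ih_STC_BM 2 and 0.32 without the line ih_STC_BM. The paralogs Pfkm (-0.04 ± 0.05), Aldoc (-0.04 ± 0.07) and Eno2 (-0.05 ± 0.09) did not pass, nor did Pfkp, Slc2a3, Pfkfb3, Pfkfb4 and Pdk1. Slopes were thus called for some genes of an enzyme family and not for others, and the difference between paralogs was not tested.

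Most hypoxia response targets had no called slope. Vegfa (-0.003 ± 0.10), Bnip3 (-0.10 ± 0.11), Adm (0.07 ± 0.15), P4ha1 (-0.04 ± 0.09) and P4ha2 (-0.04 ± 0.06) did not pass, and Ankrd37 had a steep but uncertain slope of -0.47 ± 0.22 (adjusted p = 0.098). Ddit4 had a slope of -0.37 ± 0.12 (0.019), Ndrg1 of -0.33 ± 0.09 (0.0099) and Egln1 of -0.17 ± 0.06 (0.02). Hif1a (chr12:73901375-73947530, plus strand) had a slope of 0.40 ± 0.08 (8.7e-04). From low to high intron share it had 39.9, 142 and 296 CPM in C12, 40.2, 46.6 and 158 CPM in ih_STC_BM and 170, 970 and 453 CPM in ih_DCTC. In ih_CTC it had 452, 645 and 414 CPM and in ih_BCTC 306, 302 and 447 CPM. In C12 the order of the 3 libraries for Hif1a was thus the reverse of that for Ldha and Tpi1, and the Hif1a slope remained past the threshold in every alternative in which it was tested.

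**Figure D5:**
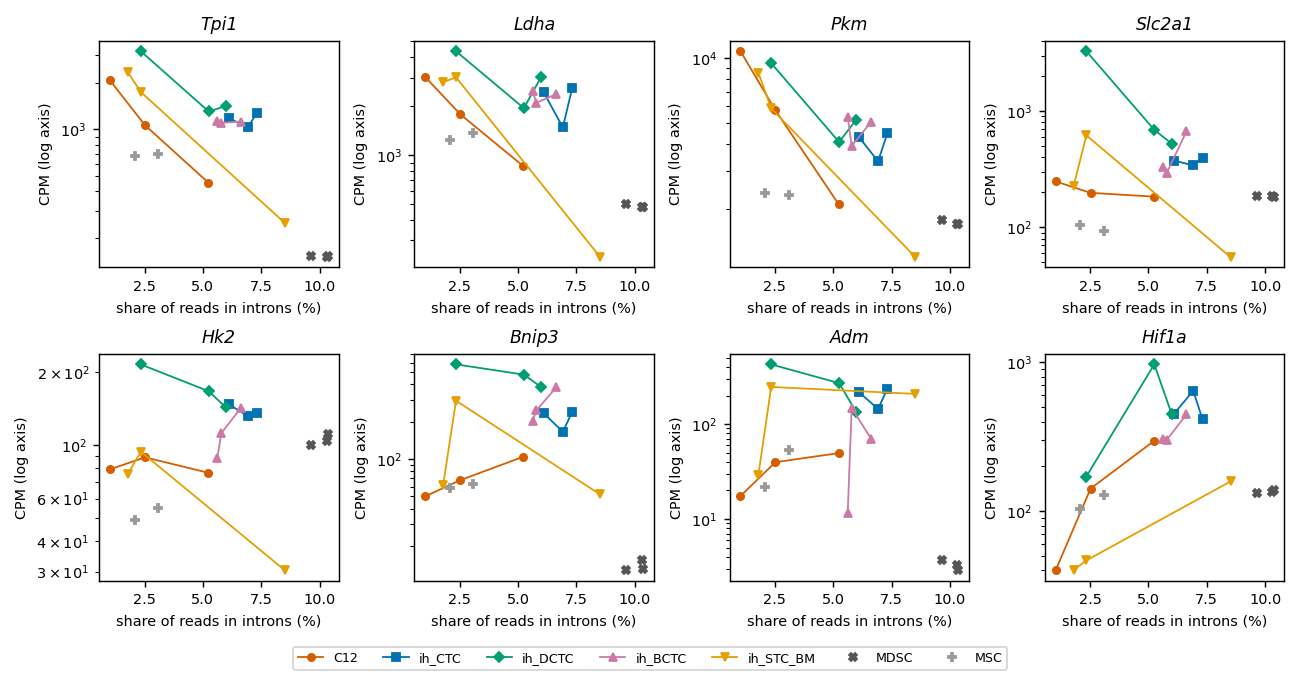
CPM on a log axis (vertical) against the share of reads in introns in percent (horizontal) for 8 genes, 1 point per library, with the libraries of a line joined in the order of that share and MDSC and MSC unjoined. Tpi1, Ldha and Pkm are lowest at the highest share in C12 and ih_STC_BM, Hif1a is highest there, and Bnip3 and Adm climb in C12 while ih_DCTC falls.

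The lines did not share 1 pattern within themselves. In C12, 18 of the 22 glycolysis genes had lower values at each step up in intron share, beside 32.3% of the genes tested over the lines, and the median log2 ratio of the library with the highest share to that with the lowest was -1.37, beside 0.07 over the tested genes. In ih_STC_BM 6 did so, beside 22.2% of tested genes (median -1.70, beside 0.14), and in ih_DCTC 7, beside 19.4% (median -0.62, beside 0.04). In ih_BCTC 3 did so, beside 18.4%, and 6 ran upward (median 0.05, beside 0.06), and in ih_CTC 0 did so, beside 8.6%, and 1 ran upward (median 0.07, beside -0.01). In ih_BCTC, 9 of the 15 hypoxia response genes ran upward with the share, beside 20.9% of tested genes, and in ih_DCTC 8 of 15 ran downward with it, beside 19.4%. Slopes over all genes also went with exon length. Spearman's rho between slope and exon length was 0.42 over 13747 genes and 0.24 over the 37 genes, values across genes that share the same 15 libraries. Genes with a called negative slope had a median exon length of 2876 bases and those with a called positive slope 6607 bases, against 4328 bases for all tested genes and 4133 bases for the 17 of the 37 genes with a called negative slope. The part that RNA quality, or any other property that moves with the intron share, has in these slopes was not tested.

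Other genes of the same pathways came from 2 further lists, of 35 glycolysis genes (33 tested) and of 49 hypoxia response genes (48 tested). Of the further glycolysis genes, C12 had 11 higher and 10 lower than MDSC, ih_CTC had 11 and 11, and ih_DCTC had 12 and 9, with median log2 fold changes of 0.04, 0.05 and 0.10, close to the all-gene medians given above. Hk3 had a mean of 0.962 ± 0.439 CPM in C12, 0.0926 ± 0.0963 CPM in ih_CTC and 0.0804 ± 0.0758 CPM in ih_DCTC, against 260.5 ± 8.16 CPM in MDSC (SD, n = 3 each). Pgm2, a phosphoglucomutase, rose with log2 fold changes of 2.83, 3.08 and 4.01. Slc2a5, the fructose transporter GLUT5, averaged 15.9 ± 2.97 CPM in C12 and had 0 counts in MDSC. Of the further hypoxia response genes, C12 had 22 higher and 13 lower, ih_CTC had 20 and 7, and ih_DCTC had 27 and 6, with medians of 0.54, 0.61 and 1.70. Lox, a collagen cross-linking enzyme gene, averaged 232 ± 149 CPM in C12, 1652 ± 400 CPM in ih_CTC and 833 ± 356 CPM in ih_DCTC, against 1.33 ± 0.442 CPM in MDSC. Tmem45a averaged 39.4 ± 5.26, 89.1 ± 33.2 and 62.7 ± 14.1 CPM in these lines, against 0.117 ± 0.120 CPM in MDSC. The chemokine receptor gene Cxcr4 averaged 0.272 ± 0.148, 0.255 ± 0.138 and 0.206 ± 0.282 CPM, against 1480 ± 7.60 CPM in MDSC. Like P4ha2, Lox belongs to collagen formation, and the mesenchymal markers given above were also near 0 in MDSC. The part of that difference in cell type was not tested.

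Against MSC, 6 of the 33 further glycolysis genes were higher and 8 lower in ih_BCTC (median 0.32) and 3 and 4 in ih_STC_BM (median 0.15), and 12 and 10 of the 48 further hypoxia response genes in ih_BCTC (median 0.13) and 10 and 12 in ih_STC_BM (median 0.26). The shares of all tested genes were those given above, 15.9% and 20.8% in ih_BCTC and 14.8% and 17.4% in ih_STC_BM. Slc16a1, the lactate and pyruvate carrier MCT1, averaged 245 ± 47.5 CPM in ih_BCTC and 62.6 ± 28.9 CPM in ih_STC_BM (n = 3 each), against 22.2 ± 2.65 CPM in MSC (n = 2), with log2 fold changes of 3.47 and 1.495 (adjusted p = 4.2e-06 and 0.0054). Car12, a carbonic anhydrase gene, averaged 23.3 ± 4.73 CPM in ih_BCTC, against 0.464 ± 0.214 CPM in MSC. Cxcr4 averaged 0.341 ± 0.113 and 0.412 ± 0.288 CPM in ih_BCTC and ih_STC_BM, against 111.1 ± 3.46 CPM in MSC. On the intron share within lines, 6 of 29 further glycolysis genes had a called negative slope and 4 a positive one, with a median of -0.07, and 11 and 10 of 45 further hypoxia response genes, with a median of -0.09, close to the 19.7% and 23.9% of all tested genes or, for the positive glycolysis slopes, below. Bsg, the chaperone of lactate carriers, had a slope of -0.31 and Mif, a cytokine gene, one of -0.37, while Pfkfb2 had 0.40 and Wsb1 0.55.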

How the data were processed

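Cells of 7 labelled groups were measured by RNA sequencing in 20 libraries. Per the submitters' processing notes, reads were handled with STAR, RSEM (version 1.2.26) and DESeq2, with no role or genome build given. The deposited table holds expected counts per gene, estimated by the authors, of which 8.24% were not whole and all were rounded here. The deposited alignment table gives, as a percent of reads, the share in introns and the share mapped (67.4% to 77%). The 37 genes and the further pathway lists were chosen with earlier results of these data known, and the further lists give no independent support.

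Counts were tested with edgeR 4.0.16 (R 4.3.3): TMM scaling, a minimum count of 10 and total of 15 by filterByExpr, a robust quasi-likelihood fit with 1 mean per group over all 20 libraries, and Benjamini-Hochberg adjustment over all tested genes. The intron slope used the 15 line libraries with 1 mean per line. TPM used union exon lengths of GENCODE M21, in which 25 of the 37 genes have the deposited coordinates; no coordinate of the deposited annotation was read from a genome. Named genes were up to 4 called rises and 4 called falls per comparison with the largest change and a mean of at least 5 CPM in 1 group, plus Slc2a1, Hk2, Gapdh, Ldha, Vegfa, Hif1a and genes a result turned on, which were chosen after their values were seen. Alternatives were scaling by RLE or upper quartiles, no filter, DESeq2 1.42.0, limma-voom (limma 3.58.1), each library left out, only the compared groups, the intron share as a covariate, a minimum log2 change of 1 and other settings of the slope. Other alternatives were chosen after seeing the data: omitting the 5 libraries of lines whose intron share was under 3%, summing near-identical gene copies, and summing the 3 MDSC libraries. The scripts were tested on simulated counts. Precision is limited by 2 or 3 libraries per group.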

Additional observations from a re-analysis of the deposited data

Results flagged for a closer look

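For 3 of the 37 genes, lines moved in opposite ways against the same comparison group, and the difference among the 5 lines was tested with edgeR's quasi-likelihood F test. Aldoc was higher than MDSC in C12 and ih_DCTC and lower in ih_CTC, with an adjusted p of 1.3e-05 for the difference among the lines. Epas1 was higher than MDSC in ih_DCTC and lower in C12, with an adjusted p of 5.6e-06. Stc1 was higher than MSC in ih_CTC and ih_DCTC and lower in ih_STC_BM and C12, with an adjusted p of 1.4e-06. The C12 libraries held 1 count of Stc1 in all. No group has 4 or more libraries, so single libraries were not tested for standing apart.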

How the results depend on the processing

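No paired analysis was possible because the labels give no replicate numbers or shared origins. With the intron share as a covariate, some log2 fold changes turned round (adjusted p of edgeR's quasi-likelihood test in brackets). Slc2a1 went to -2.52 (0.013), Gapdh to -1.55 (0.004) and Ldha to -1.39 (0.051) in C12 over MDSC. Hk2 went to -0.13 (0.76) in ih_DCTC over MDSC. In MDSC over MSC, Gapdh went to 1.77 (0.0027), Ldha to 1.88 (0.019) and Hif1a to -2.74 (0.0029). Without the 5 line libraries with a share under 3%, ih_STC_BM 2 and C12 3 are the only libraries of their lines. In that fit Hk2 (-0.82), Gapdh (-1.26) and Ldha (-2.50) in ih_STC_BM over MSC and Gapdh (-1.10) in C12 over MSC turned round. These values, and the counts of that fit for these lines, rest on 1 line library. With the covariate, the counts of the 37 genes higher were 8 (C12), 19 (ih_DCTC) over MDSC, 15 (ih_STC_BM), 22 (ih_BCTC), 14 (C12), 22 (ih_CTC) and 29 (ih_DCTC) over MSC and 14 (MDSC over MSC), with 10 lower in C12 and 7 lower in MDSC over MSC. With only the compared groups in the fit, 8 were lower in ih_CTC over MDSC, and 1 (ih_STC_BM), 21 (ih_BCTC), 22 (ih_CTC) and 11 (MDSC) were higher over MSC. Without the 5 libraries, 17 were lower in ih_STC_BM and 8 in C12, and 21 were higher in ih_BCTC and 24 in ih_CTC, over MSC, and 28 differed among lines. With MDSC summed to 1 library, 12 (C12) and 13 (ih_CTC) were higher over MDSC, and 1 was higher and 5 lower in MDSC over MSC. Without the line ih_STC_BM, 2 positive slopes were called. Shares of all tested genes called under these alternatives are not given, so whether other genes moved alike was not tested. The cause was not tested.

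With each library left out, the counts higher and lower ranged over 19 to 23 and 4 to 6 (C12), 20 to 21 and 5 to 5 (ih_CTC) and 25 to 30 and 4 to 4 (ih_DCTC) over MDSC. Over MSC they ranged over 2 to 15 and 5 to 6 (ih_STC_BM), 4 to 11 and 3 to 4 (ih_BCTC), 2 to 6 and 4 to 4 (C12), 2 to 10 and 4 to 4 (ih_CTC), 12 to 20 and 3 to 3 (ih_DCTC) and 1 to 4 and 10 to 14 (MDSC). The count among lines ranged from 15 to 22, negative slopes from 10 to 19 and positive slopes from 1 to 2. Where 1 MSC library is left, it is assumed to vary like the other groups. Of single-gene results, 741 of 830 kept their side of the threshold with a library left out, and 1217 of 1331 under other alternatives. Upper-quartile scaling shifted the median of all genes by 0.27 (C12), 0.17 (ih_CTC) and 0.22 (ih_DCTC) over MDSC and -0.13 (MDSC over MSC), and RLE by -0.14 (ih_CTC) and -0.13 (ih_DCTC) over MDSC. Aldoc in ih_CTC, Stc1 in C12, ih_STC_BM and MDSC, and Eno2 and P4ha2 in MDSC rest on few counts.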
